A study of Mus musculus with 10 samples.

Results

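The 5 leukemias described here arose in Ikzf1+/- mice and carried BCR-ABL1, and they were the 5 arrays labelled with that genotype among the 10 arrays of the series. Each array compared genomic DNA of GFP+ leukemic bone marrow cells, labelled with Cy5, with DNA of stage-matched non-leukemic bone marrow, labelled with Cy3. The series' design text describes the normal DNA as coming from B220+ B cells. The labels do not say how BCR-ABL1 was introduced, how the Ikzf1 allele was altered, whether the 5 tumours came from separate animals, or whether the arrays shared one reference DNA. All p-values therefore measure the spread between these 5 samples.

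Array comparative genomic hybridisation reads copy number from the ratio of tumour to normal DNA bound at each probe. Values below are log2 of leukemic over non-leukemic DNA, so a value above 0 means more tumour DNA. A change from 2 copies to 3 in every cell would give 0.58 and the loss of 1 of 2 copies would give -1. In DNA from a mass of cells, a change in fewer cells and a smaller change per cell cannot be told apart. Ikzf1 encodes Ikaros, a zinc-finger transcription factor needed for lymphocyte development. BCR-ABL1 is a constitutively active fusion tyrosine kinase that drives acute lymphoblastic leukemia, in which deletions of lymphoid regulators such as Ikzf1, Pax5 and Ebf1 are recurrent. B cells also rearrange their immunoglobulin genes by recombination that deletes the DNA between the joined segments, and the heavy-chain locus Igh lies near the distal end of mouse chromosome 12.

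Signal was lowest and noise highest in tumour 5. Median background-subtracted intensities were 199 to 225 in the Cy5 channel and 146 to 165 in the Cy3 channel. The probe-to-probe noise SD was 0.171 to 0.194, and outlier spots numbered 256 in tumour 5 and 137 to 153 in the others. All 5 arrays measured 402346 placed probes, of which 398163 were well detected in both channels in every tumour. Tumour 1 was hybridised on slide 1, tumours 2 and 3 on slide 2, and tumours 4 and 5 on slide 3. The deposited files pair no probe with a gene and no mm9 gene annotation was used here, so each change is given by its mm9 position. The Ikzf1 locus on chromosome 11 was therefore not checked against the genotype label.

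Called changes were few, short and unevenly spread over the tumours. A call was a stretch of at least 5 probes with a mean of at least 0.3 in either direction. There were 16 gains and 22 losses over the 5 tumours, and these covered 0.0455% and 0.0934% of the autosomal probe values. Tumour 1 had 2 gains and no loss. Tumour 3 had 2 gains and 1 loss, and tumour 4 had 2 gains and 5 losses. Tumour 2 had 5 gains and 7 losses, and tumour 5 had 5 gains and 9 losses. The lost DNA summed to 0, 1.76, 0.123, 0.479 and 1.70 Mb in tumours 1 to 5, and the gained DNA to 0.199, 0.568, 0.127, 0.258 and 0.949 Mb. Tumours 2 and 5 thus held most of the called DNA. The gains of tumour 5 over 30.03 Mb of chromosome 14 and 42.9 Mb of chromosome 19, described below, both averaged 0.28. Being under 0.3, they are left out of these counts and sums, apart from a segment called on chromosome 19. Calls were 16.8 to 1136 kb long, with a median of 100.5 kb, and lay on 11 of the 19 autosomes. The number of losses was 13 without tumour 5. With normexp, an alternative that starts from the median signals, corrects the background another way and applies no dye normalisation, there were 22 gains and 7 losses.

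Of the 19 autosomes, 3 had a median above 0.05 in any tumour. Chromosome 19 had a median of 0.19 in tumour 5 and -0.011 to -0.0025 in the other tumours. Chromosome 12 had a median of 0.069 in tumour 4 and -0.0057 to 0.0090 in the others. Chromosome 15 had a median of 0.056 in tumour 2 and -0.0099 to 0.0020 in the others. The two-sided exact sign-flip permutation test over 5 tumours cannot give a p below 0.0625, so no autosome could pass the threshold, and the smallest p adjusted over the 19 autosomes was 0.170.

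**Figure D1:**
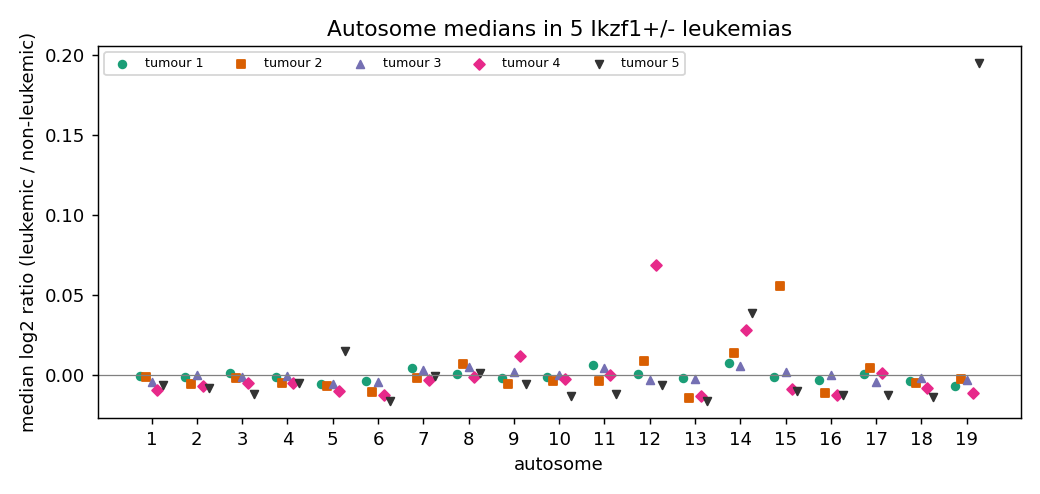
Median log2 ratio of leukemic over non-leukemic DNA of each autosome (horizontal axis, chromosome number), with 1 point per tumour. Chromosome 19 of tumour 5 (0.19), chromosome 12 of tumour 4 (0.069) and chromosome 15 of tumour 2 (0.056) stand away from the other tumours.

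The deepest change was a loss on distal chromosome 12, the chromosome that carries Igh, and its depth and length differed from tumour to tumour. Over the first 100 kb, from position 114670169 and covering 13 probes, the mean was -0.28, -2.16, -0.34, -0.56 and -1.16 in tumours 1 to 5. All 5 tumours were below 0 there, tumour 2 by far the lowest and tumour 1 the nearest to 0. The depth depended on the processing. Over the 12 probes from 114672646 to 114767078, tumours 2 and 5 were at -2.10 and -1.18. There they were at -0.92 and -0.80 with normexp, and at -1.71 and -0.98 with well-detected probes only. Between 100 and 500 kb from the edge, over 54 probes, the means were -0.012, -0.87, -0.038, -0.24 and -0.48. From 500 kb to the end of the longest call, over 98 probes, they were 0.067, -0.46, 0.019, -0.15 and -0.17. In tumours 1 and 3 the means were thus close to 0 beyond the first 100 kb, and in tumours 2, 4 and 5 they stayed negative. In the 1 Mb before the edge the means were -0.011, 0.017, -0.0041, 0.10 and 0.026.

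The loss of tumour 2 fell into 4 steps that grew shallower with distance. The first 7 probes, from 114672646 to 114719029, averaged -2.85. The next 53 probes, to 115126863, averaged -0.91, and the following 35 probes, to 115379786, averaged -0.61. The last 69 probes, to 115808258, averaged -0.39, and the DNA distal to them was at -0.0070. In tumour 2 the probe just before the first step, at 114670169, was also at -2.85. The first probe inside that step, at 114672646, was at -0.29, so the start of the loss is uncertain by a probe. The probe at 114675830 was the lowest of the first 100 kb in tumour 2 at -4.53, and it was at -0.54, -0.22, -0.88 and -2.20 in tumours 1, 3, 4 and 5. A step pattern of this kind was also present in tumour 5, where 14 probes averaged -1.18, the next 61 averaged -0.45 and the next 118 averaged -0.14, ending at 116079598. Tumour 4 had 13 probes at -0.56 followed by 250 probes at -0.18, ending at 116803635. In tumour 3 the loss was a single step of 17 probes at -0.37, from 114672646 to 114795605. Tumour 1 had no change point on chromosome 12.

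Tumour 5 had a separate loss further along, from 116506075 to 116724033, where 17 probes averaged -0.45. The same stretch was at -0.017, 0.016, 0.0065 and -0.16 in tumours 1 to 4. With normexp the value of tumour 5 there was -0.23. T-lineage receptor genes lie elsewhere: the reference gene table places Tcra and Tcrd on chromosome 14, Tcrb on 6 and Tcrg on 13. Chromosome 6, which carries both Igk and Tcrb, had no call in any tumour, and neither had chromosome 16, which carries Igl. Chromosome 13 had 7 calls and chromosome 14 had 2, and whether any touched a receptor locus was not read here.

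**Figure D2:**
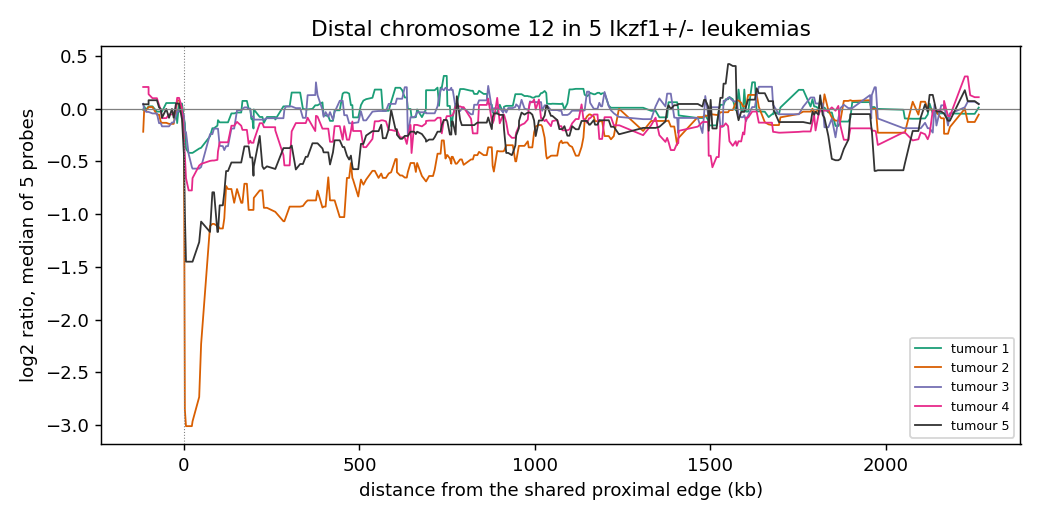
Log2 ratio on distal chromosome 12 against the distance in kb from the shared proximal edge of the loss (dotted vertical line), as a running median of 5 probes with 1 line per tumour. Tumour 2 is deepest next to the edge, tumour 5 is next, tumour 4 is shallower, and tumours 1 and 3 are lowered next to the edge. The lowered segments of tumour 4 reach farthest from the edge, although its running median rises above 0 in places.

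Chromosome 11, which carries Ikzf1, Ebf1 and 8 other genes of the 6 lists considered here, had 1 long loss, and it was found only among the calls of tumour 5. It ran from 44369539 to 44703340, a length of 333.8 kb covered by 1030 closely spaced probes, with a mean of -0.41. Tumours 1 to 4 had means of 0.039, 0.0039, 0.021 and 0.033 over the same probes, so tumour 5 lay apart from a narrow range. In tumour 5, 94.0% of these probes were below 0, against 40.8% to 48.2% in the other tumours. The edges were sharp. Neighbouring probes on either side were 330 bases apart at the proximal edge and 159 bases apart at the distal one.

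The loss had 2 levels. Its proximal 180.3 kb, 534 probes, averaged -0.48 with an SD over probes of 0.41, and its distal 153.3 kb, 496 probes, averaged -0.33 with an SD of 0.25. The level changed between 44549789 and 44550016. Next to the distal edge, short shallow reductions that did not reach the call threshold were found in tumours 1 and 3. In tumour 1, 160 probes from 44712027 to 44760979 averaged -0.15, and in tumour 3, 99 probes from 44701721 to 44731599 averaged -0.14. Tumour 5 itself was at 0.072 over the 613 probes beyond its loss.

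The array held 60 blocks of closely spaced probes (windows with at least 50 probes, neighbours merged), 7 of them on chromosome 11. In the 6 blocks outside the loss every tumour was within 0.031 of 0. For example, the block from 11500001 to 11800000, with 706 probes, was at 0.019, -0.017, 0.0077, -0.0054 and -0.012 in tumours 1 to 5. Over the whole genome 55 of the 60 blocks were within 0.1 of 0 in all 5 tumours.

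**Figure D3:**
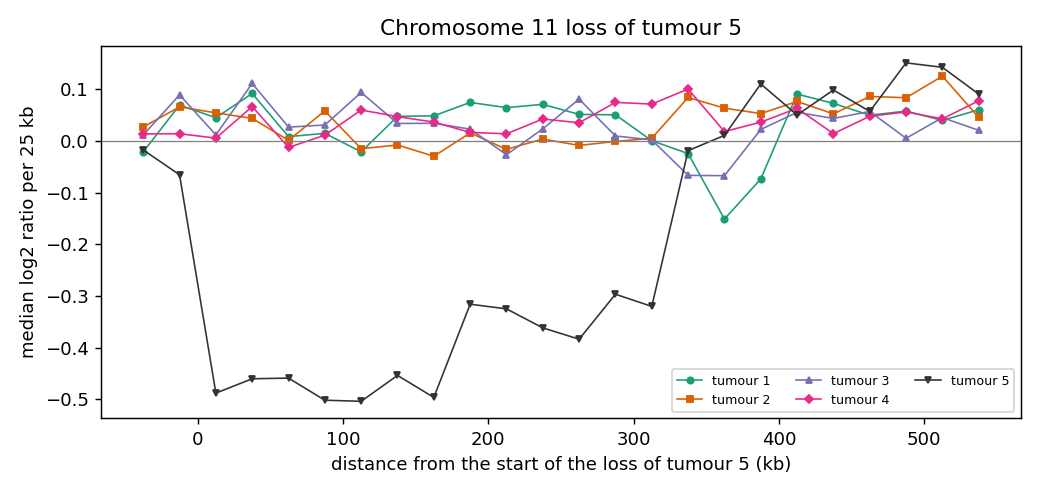
Median log2 ratio per 25 kb on chromosome 11 (bins of at least 20 probes) against the distance in kb from the start of the loss of tumour 5, with 1 line per tumour. Tumour 5 drops to about its mean of -0.48 and then steps up to -0.33 before it returns to the level of the other 4 tumours.

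Tumour 5 also carried the only long gains. A broad shift was a segment of at least 500 probes with a mean of at least 0.15 in either direction. There were 5, all in tumour 5: 1 was the proximal level of the chromosome 11 loss and the other 4 were gains on chromosomes 14 and 19. The distal 30.03 Mb of chromosome 14, from 95136374 to 125170673 with 3882 probes, had a mean of 0.28, a ratio of 1.22. Tumours 1 to 4 had means of -0.010, -0.010, -0.0079 and 0.015 there. In 1-Mb bins tumour 5 ranged from 0.22 to 0.33 and was above all other tumours in 30 of 30 bins. The bins recut the probes by which the stretch was chosen, so they describe its evenness and add no support. The step upward lay in the 8770 bases between the probes that end at 95127604 and start at 95136374, and the proximal 92.1 Mb had a mean of 0.0064.

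On chromosome 19 the raised part was proximal. The first 42.9 Mb, from 3147156 to 46021876, had a mean of 0.28 in tumour 5, a ratio of 1.21, and -0.0078, -0.0034, -0.0036 and -0.016 in tumours 1 to 4. Tumour 5 was above all others in 43 of 43 bins, with a range of 0.22 to 0.33, and these bins too recut the probes by which the stretch was chosen. The step downward lay in the 6248 bases between 46021876 and 46028124, and the distal 15.3 Mb had a mean of -0.029. The raised part held 3 segments, and 1 of them also met the rule for a call, with a mean of 0.35. Both gains were well below 0.58, the value of 1 added copy in every cell. With normexp the gains were 0.32 on chromosome 14 and 0.40 on chromosome 19, and without tumour 5 no broad shift was left. Chromosome 19 carries Blnk and Pik3ap1, adaptors of B-cell receptor signalling, Dntt, the polymerase that adds untemplated bases at immunoglobulin joins, Jak2, a cytokine-receptor kinase, and Prkg1, a long gene. Chromosome 14 carries Blk, a Src-family kinase of B cells, Rb1, the retinoblastoma cell-cycle regulator, and Fhit, a fragile-site gene. Whether any of these genes lay inside a raised part was not read here.

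**Figure D4:**
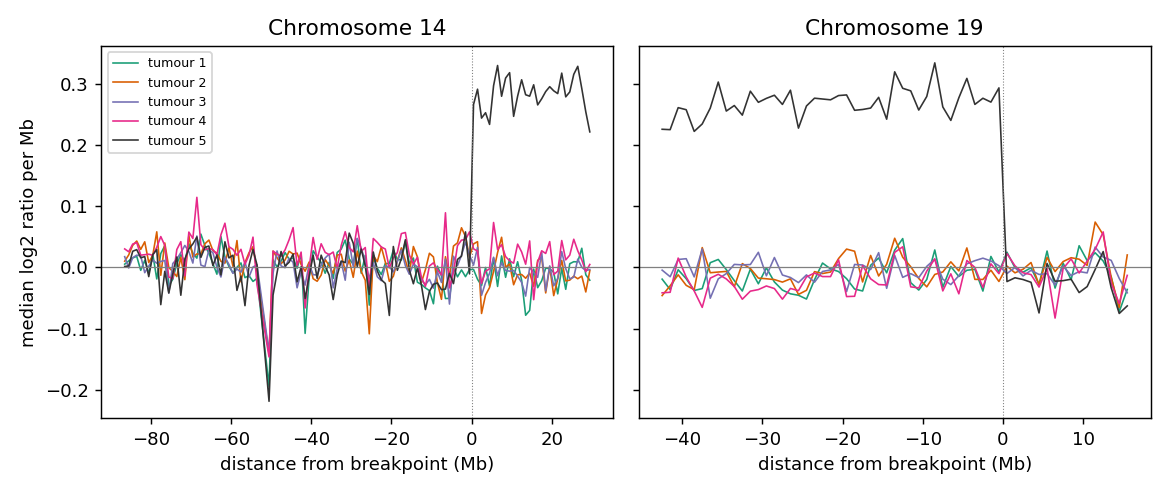
Median log2 ratio per Mb on chromosomes 14 and 19 against the distance in Mb from the breakpoint of tumour 5 (dotted vertical line), with 1 line per tumour and bins of at least 20 probes. Tumour 5 lies between 0.22 and 0.33 distal to the breakpoint on chromosome 14 and proximal to it on chromosome 19, and near the other tumours elsewhere.

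Shifts of whole-chromosome medians in tumours 2 and 4 were much smaller but were seen in every bin of 10 Mb. In tumour 4, chromosome 12 was above all other tumours in 13 of 13 bins of 10 Mb, with values of 0.017 to 0.091 against -0.075 to 0.031 in the others. The median of 0.069 is a ratio of 1.05. The bins hide the distal chromosome 12 loss of tumour 4 described above, where 13 probes averaged -0.56 and 250 averaged -0.18. In tumour 2, chromosome 15 was above all other tumours in 11 of 11 bins, with values of 0.033 to 0.076 against -0.046 to 0.018, and its median of 0.056 is a ratio of 1.04. The highest segment of that chromosome in tumour 2 ran from 9267096 to 10642678, where 692 probes averaged 0.12. Chromosome 15 carries Myc, a growth-promoting transcription factor, Il7r, the receptor for the pre-B-cell cytokine IL-7, and the chromatin regulators Ep300, Kmt2d and Arid2. Both shifts were smaller than the noise of a single probe and are medians over 14894 and 13841 probes of a single array each. These chromosomes were described because their medians stood out. The bins recut the same probes, so they describe evenness and add no support.

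Tumours shared 8 intervals in which at least 2 of them had a call of the same direction. In these 8 the mean was on one side of 0 in all 5 tumours, called or not, which with normexp failed in the chromosome 11, 14 and longer chromosome 13 intervals and turned to positive on chromosomes 1 and 4. The shift was smallest in tumour 3 in 6 of the 8, and largest in tumour 2 in 4 and in tumour 5 in 4. Values below are means over the probes common to the calls.

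The interval called in all 5 tumours was a gain on chromosome 9, from 40553988 to 40622700, with 15 probes at 0.36, 0.59, 0.45, 0.37 and 0.61 in tumours 1 to 5. Its mean was 0.48 ± 0.12 (SD, n = 5), and 0.20 with normexp. A gain on chromosome 13, from 61942334 to 62037213, was called in tumours 1, 2, 4 and 5. Its 11 probes were at 0.47, 0.90, 0.37, 0.40 and 0.80, with a mean of 0.59 ± 0.25 (SD, n = 5). With normexp tumour 3 was at -0.0065 there, and the mean over tumours was 0.24. In both gains tumours 2 and 5 had the highest values.

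A shorter gain on chromosome 13 had the same first and last probe, 101039739 to 101073526, in tumours 2 and 5. Its 5 probes were at 0.34, 0.64, 0.22, 0.36 and 0.77, with a mean of 0.47 ± 0.23 (SD, n = 5). With normexp the 5 tumours were at 0.15, 0.53, 0.021, 0.14 and 0.48 there, with a mean of 0.26. A loss on chromosome 11 began at the same probe, 116609271, in tumours 2, 4 and 5. Its 7 probes, to 116626075, were at -0.31, -0.84, -0.30, -0.52 and -0.73, with a mean of -0.54 ± 0.24 (SD, n = 5). With normexp it was at 0.029 in tumour 1 and -0.011 in tumour 3, and at -0.65, -0.23 and -0.44 in the called tumours 2, 4 and 5. The 2 probes just before it, at 116590780 and 116596801, were between -0.097 and 0.28 in the 5 tumours.

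The next losses had shallower means. That on chromosome 14, from 69876584 to 70082968 with 40 probes, was called in tumours 2 and 5 and had means of -0.27, -0.52, -0.18, -0.29 and -0.44. With normexp tumour 3 was at 0.024 there. On chromosome 1, 20 probes from 90109653 to 90204948 were at -0.27, -0.29, -0.21, -0.31 and -0.37, called in tumours 4 and 5. On chromosome 4, 44 probes from 3205206 to 3311575 were at -0.26, -0.26, -0.24, -0.33 and -0.35, called in the same 2 tumours. The tumours differed little in these last intervals, with SDs of 0.056 and 0.048 (n = 5), and with normexp both means turned to the other side of 0, at 0.041 and 0.052. The remaining interval was the chromosome 12 loss, called in tumours 2 to 5. There were 4 shared intervals without tumour 5 and 4 with normexp.

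**Figure D5:**
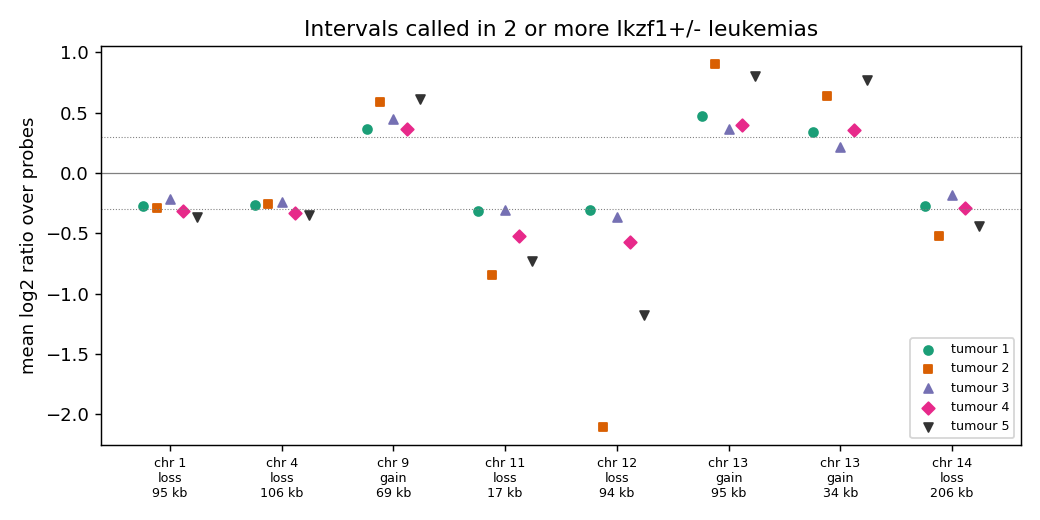
Mean log2 ratio over the common probes of the 8 intervals called in 2 or more tumours (horizontal axis, chromosome, direction and length), with 1 point per tumour and the call threshold of 0.3 dotted. Each interval has all 5 tumours on one side of 0, although the chromosome 1 and 4 losses turn positive with normexp, and tumours 2 and 5 are farthest from 0 in the chromosome 11 and 12 losses and in the 3 gains.

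The other 14 calls were made in 1 tumour each: 6 in tumour 2, 1 in tumour 3, 1 in tumour 4 and 6 in tumour 5. In 12 of them all 5 tumours were nonetheless on the same side of 0. Tumour 2 had a loss on chromosome 1 from 169725562 to 169753369, with 6 probes at -0.83, against -0.34 to -0.14 in the other tumours. Its probes varied widely in tumour 2, from -2.64 to -0.074. Tumour 2 also had losses on chromosome 4 (140976607 to 140996454, -0.56), chromosome 5 (14871248 to 15184791, -0.47) and chromosome 9 (114459899 to 114494239, -0.56). Its gains lay on chromosome 4 (145018403 to 145079060, 0.43) and chromosome 13 (87165070 to 87299012, 0.49). On chromosome 5 the other tumours were at -0.41 to -0.23, so that call differed little from uncalled values.

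Tumour 3 alone had a gain on chromosome 8 from 72665748 to 72706523, with 9 probes at 0.31, and the others were at 0.17 to 0.30. Tumour 4 alone had a loss on chromosome 11 from 3026911 to 3094185 at -0.31, and the others were at -0.22 to -0.078. Beside the chromosome 11, 12 and 19 changes above, tumour 5 had losses on chromosome 2 (26524121 to 26620005, -0.36) and chromosome 5 (3401290 to 3459936, 182 probes, -0.31). The other tumours were at -0.14 to -0.036 on chromosome 2. On chromosome 5 they were at -0.28 to -0.20, so that call differed little from uncalled values. The gain of tumour 5 on chromosome 4 from 133293164 to 133415726 had 23 probes at 0.38, against 0.13 to 0.19 in the other tumours. Among these 14 calls, the tumour 5 losses at 44369539 on chromosome 11 and at 116506075 on chromosome 12 were those in which other tumours lay on the other side of 0.

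Changes common to all 5 tumours were also sought in 23426 autosomal windows of 100 kb with limma against 0. At an adjusted p of 0.05, 96 windows were higher, 0.41% of those tested, and 197 were lower, 0.841%. All 293 had the 5 tumours on one side of 0, as had 20.2% of all windows. The called shifts were small, with a median size of 0.12 against 0.026 over all windows, and 12 reached 0.3. The counts fell by over 1.5 times when any of tumours 1 to 4 was left out. They were 10 and 46 without tumour 1, 17 and 79 without tumour 2, 24 and 69 without tumour 3, and 7 and 36 without tumour 4, against 72 and 144 without tumour 5. With normexp 5338 windows were higher and 3002 lower.

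Among windows past the test, the highest was on chromosome 13 at 61900001, at 0.31, 0.74, 0.34, 0.29 and 0.54 in tumours 1 to 5, with a mean of 0.44 ± 0.20 (SD, n = 5, limma adjusted p = 0.011). The 10 highest windows had means of 0.20 to 0.44, and 5 of them overlapped an interval called in 2 or more tumours. Among those outside, 20 probes on chromosome 11 at 116400001 had a mean of 0.21 ± 0.071 (SD, n = 5, limma adjusted p = 0.0078), and 13 probes on chromosome 13 at 70100001 had a mean of 0.20 ± 0.078 (limma adjusted p = 0.013). Among those past the test, the lowest was on chromosome 5 at 14900001, with 3 probes at -0.50, -0.54, -0.21, -0.34 and -0.48 and a mean of -0.41 ± 0.14 (SD, n = 5, limma adjusted p = 0.0036). The 10 lowest had means of -0.41 to -0.29, 2 of them in shared intervals. The window on chromosome 2 at 175400001 varied least among the lowest, at -0.36 to -0.27 with an SD of 0.040 (n = 5, limma adjusted p = 0.00056). On chromosome 7 at 7800001, 3 probes had a mean of -0.35 ± 0.057 (SD, n = 5, limma adjusted p = 0.00056). Among all windows with at least 5 probes, whether past the test or not, the largest spread between tumours was on chromosome 12 at 114900001, inside the distal loss, with an SD of 0.47 and values of 0.021, -1.13, -0.019, -0.33 and -0.48.

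All 121 genes of the 6 lists could be placed on a chromosome by name. Of these, 10 are on chromosome 11: the lymphoid transcription factors Ikzf1, Ikzf3, Ebf1 and Bcl11a, the B-cell receptor subunit Cd79b, the cytokine-activated transcription factors Stat5a and Stat5b, the RAS inhibitor Nf1, the tumour suppressor Trp53 and the chromatin regulator Suz12. Chromosome 4 carries 11, among them Pax5, a B-cell identity factor, and the cell-cycle inhibitors Cdkn2a and Cdkn2b, and its calls were 1 shared loss, 1 loss and 1 gain of tumour 2, and 1 gain of tumour 5. Chromosomes 12, 13, 14 and 15 carry 4, 4, 3 and 5. No list gene was assigned to a called interval, so no count of changed list genes is given.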

How the data were processed

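The members and lists were chosen with earlier results of these data known. The deposited scanner files hold Cy5 and Cy3 intensity per spot as processed signals, background-subtracted and dye-normalised by the authors' Agilent Feature Extraction (10.5.1.1 per the submitters' processing notes, 10.7.3.1 and build mm9 per the file headers, whose protocol name states lowess). The deposited matrix holds log2 ratios equal to the scanner's log10 ratio converted to log2 (slope 1.00), not centred. Cy5 was leukemic on every array, so a dye effect shared by the arrays, and the reference's own spread, cannot be told apart from the mean.

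From the deposited signals, log2 of Cy5 over Cy3 was computed per spot that was not a control, outlier spots were dropped, spots of a probe averaged, and the autosomal median of the array subtracted. A position was given for 402346 of 402404 probes, at a median spacing of 5.34 kb on autosomes. Arrays were segmented singly by penalised change points (PELT; at least 3 probes, penalty 2 times the noise variance times ln n, outlying probes pulled in to 4 noise SDs from an 11-probe running median). A call needed 5 probes and a mean of 0.3 or more in size. Calls of one direction were merged across gaps of fewer than 5 probes or with a mean past 0.15 the same way, so a joined mean averages its steps. Windows of 100 kb with at least 3 probes were tested with limma 3.58.1 (R 4.3.3; lmFit, eBayes, Benjamini-Hochberg). Autosome medians had two-sided exact sign-flip tests (32 flips). Python 3.11.15, numpy 2.4.6, numba 0.67.0 and pandas 2.3.3 were used. Segmentation and window tests were also run on simulated data. The simulated noise was normal and independent between probes or windows, without the isolated high probes of tumours 4 and 5. Its outcome is not used here as support for the calls.

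Intervals, windows and calls were named by rule: all shared intervals, the 10 highest and 10 lowest windows past the test, and the 10 with the largest spread, of which some are given singly. The planned tests per gene needed a gene column and were not run, and 1 list gene is not reported here. The number of arrays limits the precision. Alternatives were normexp (offset 50, on median signals), loess, the matrix, well-detected probes only, outliers kept, other thresholds and penalty, the slide as a random block, and leaving out each tumour.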

Additional observations from a re-analysis of the deposited data

Results flagged for a closer look

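In 15 of 55 sets of 5 tumour values, 1 tumour's gap to its nearest neighbour exceeded 0.71 of the whole range, which chance gives in about 1 of 20 sets not picked by their values. Of the 15, 4 are calls made in 1 tumour and 5 are broad shifts, which were picked because that tumour's value was far from 0, so this rate does not apply to them. Several of these sets overlap, since a chromosome median, a call and a segment can share probes.

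Tumour 5 stood apart most often. Its chromosome 19 median was 0.19, and the 3 segments of the raised part of chromosome 19 had medians of 0.26, 0.34 and 0.28. The call within it had a mean of 0.35. The raised part of chromosome 14 had a median of 0.28, the chromosome 11 loss at 44369539 a mean of -0.41, and its proximal level a median of -0.48. The gain on chromosome 4 at 133293164 had a mean of 0.38. Smaller departures were the chromosome 5 median of 0.015 and the chromosome 10 median of -0.013. Its median Cy3 intensity, 145.5, was also the lowest of the 5 arrays.

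In tumour 4 the chromosome 12 median of 0.069 stood apart. In tumour 2 this held for the chromosome 15 median of 0.056 and for the loss on chromosome 1 at 169725562, with a mean of -0.83.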

How the results depend on the processing

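No paired analysis was possible because only 1 genotype is described and each tumour is compared with the non-leukemic DNA on its own array. The planned tests per gene were not run. For windows higher and lower, 96 and 197, the counts were 5338 and 3002 with normexp, 327 and 477 with the slide as a random block (estimated correlation -0.12), and 16 and 100 with the median over probes. Well-detected probes gave 157 higher, and leaving out each tumour gave 7 to 72 higher and 36 to 144 lower. Against 16 gains, there were 5 at a threshold of 0.5, 5 at a penalty of 4, and 11 to 14 without a tumour. For the 22 losses the counts were 37 at a threshold of 0.2, 10 at 0.5, 8 at a penalty of 4, 7 with normexp and 13 to 22 without a tumour. The 8 shared intervals became 4 at 0.5, 5 at a penalty of 4, 4 with normexp and 4 to 8 without a tumour. The 5 broad shifts became 10 at 0.1, 3 at a penalty of 4, 63 with normexp and 0 to 5 without a tumour. With normexp, which starts from the median signals and applies no dye normalisation, the means of the shared losses on chromosomes 1 and 4 reversed to 0.041 and 0.052. Of the 14 interval and chromosome values followed, with normexp 9 moved by over 1 SD on the same side of 0. A further 2, those on chromosomes 1 and 4, reversed, and 3 stayed within 1 SD. The SD was over all 5 tumours for the shared intervals, and over the other tumours only for a value of 1 tumour. The tally therefore mixes scales. Chromosome 15 of tumour 2 counted as moved from 0.056 to 0.062, and the chromosome 12 shared loss as within 1 SD from -0.90 to -0.57. With loess, the deposited matrix, well-detected probes only and outliers kept, 14 of 14 stayed within 1 SD. No autosome passed under any alternative run, and none could with a smallest possible sign-flip p of 0.0625, or 0.125 with 4 tumours. The smallest adjusted sign-flip p was 0.079. Beyond the settings' own construction the cause of these differences was not tested. Of the probes, 99.0% were well detected in all 5 tumours, and whether dim spots had a part in these differences was not tested.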

Other observations

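The direction of the sex chromosomes depended on the processing in all 5 tumours. With the processed signals, the X median was 0.094 to 0.14 and the Y median 0.050 to 0.095. With normexp they were -0.17 to -0.14 and -0.17 to -0.14, and with plain background subtraction -0.23 to -0.20 and -0.25 to -0.20. Probes on X had 0.570 to 0.596 times the autosomal median intensity in Cy3 and 0.492 to 0.515 times in Cy5, and probes on Y had 0.582 to 0.606 and 0.484 to 0.517 times. At least 91.6% of these spots were well above background in each tumour. No gain or loss of X or Y is read from these values.

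Single probes far above their neighbours were concentrated in 2 tumours. Autosomal probes of at least 3 whose neighbourhood was within 0.5 of 0 numbered 1, 4, 0, 26 and 101 in tumours 1 to 5. Both of the tumours with most of them were on slide 3. In 8 of the 10 windows with the largest spread between tumours (at least 5 probes, windows within 1 Mb of a larger one not counted), the tumour farthest from the others had 1 probe at 3.23 to 4.77. On chromosome 2 at 82400001, for example, 1 probe was at 4.69 in tumour 5 and the other probes averaged 0.072. On chromosome 6 at 14300001, 1 probe was at 4.77 in tumour 4 and the others averaged -0.12.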
